A study of Homo sapiens with 6 samples.

Results

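The long noncoding snoRNA host genes were taken from the deposited table by name: every gene whose symbol is SNHG followed by a number, together with DANCR, GAS5 and ZFAS1. They are called noncoding hosts here, although GENCODE release 29 lists SNHG32 as protein-coding. This gave 31 of the 60671 genes, and 28 of them reached a mean of at least 0.5 FPKM (fragments scaled by the length of the gene and the depth of the library) over the 6 libraries and were compared. Members were thus chosen by symbol, and those tested were selected on their mean FPKM over all libraries. The group as a whole was proposed with the interferon comparison of these libraries already known, so counts over its members are descriptions and carry no test of the group.

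Small nucleolar RNAs (snoRNAs) guide the chemical modification of ribosomal RNA, box C/D snoRNAs directing methylation of the ribose and box H/ACA snoRNAs directing the conversion of uridine to pseudouridine. In human cells most of them are cut out of the introns of host genes. The spliced exons of many noncoding hosts reach the cytoplasm, where many are removed by nonsense-mediated decay, and many host transcripts begin with the pyrimidine-rich start (5′TOP) shared by messages for ribosomal proteins. Several host RNAs are also studied for roles of their own: DANCR holds epidermal progenitors in an undifferentiated state, and GAS5 accumulates in growth-arrested cells.

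The RNA came from HaCaT cells, which are human keratinocytes immortalised in culture and an established cell line. The IFN-beta group (n = 3 libraries) received interferon beta, a type I interferon, at 160 ng/mL for 24 h in high-glucose DMEM without serum, and the control group (n = 3) stayed for 24 h in serum-free medium without it. Whether replicates were grown as separate cultures is not stated, and p-values therefore cover only library-to-library spread, possibly of technical origin. Library totals of 25832158 to 30594527 reads were inferred from the steps of the FPKM values. All 10 keratinocyte markers looked at were above 0.5 FPKM, with a summed level of 3954 to 4289 FPKM in the control libraries and 4019 to 4088 FPKM in the IFN-beta libraries. The summed level of MX1, IFIT1 and ISG15, which interferon induces, was 25.1 to 28.4 FPKM in the control libraries and 1486 to 1614 FPKM in the IFN-beta libraries. Marker lists of fibroblasts, melanocytes and leukocytes summed to at most 3.96 FPKM in any library, and the endothelial list went from 0.696 to 0.964 FPKM in the control group to 2.12 to 2.21 FPKM in the IFN-beta group. RNA per cell and cell number cannot be told apart in bulk RNA.

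Most of the host genes that changed were lower with IFN-beta, and DANCR changed by the most. Of the 28 host genes tested, 13 were lower, 2 were higher and 13 did not pass (limma, two-sided, Benjamini-Hochberg adjusted p under 0.05 over all 15163 genes tested). That is 53.6% of the host genes, where 42.4% of all genes tested passed in either direction. Lower calls made up 46.4% of the host genes against 19.9% of all genes, and higher calls 7.14% against 22.5%. The median log2 change, always IFN-beta minus control on the log2(FPKM + 0.5) scale, was -0.21 over the host genes and 0.01 over all genes tested. The change was below 0 in 21 of 28 host genes and in 48.5% of all genes.

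The groups did not overlap, with all 3 IFN-beta libraries below all 3 control libraries, in 15 host genes, and lay the other way in 3. Over all genes these shares were 25.4% and 28.6%, together 54.0%. All 15 called host genes had groups that did not overlap. Among the 6 called host genes with a log2 change under -0.5, a limit set after the values were seen, were DANCR, SNHG9, SNHG8, SNHG5, SNHG18 and SNHG19. They were 21.4% of the host genes, and 3.67% of all genes tested met the same limit.

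**Figure D1:**
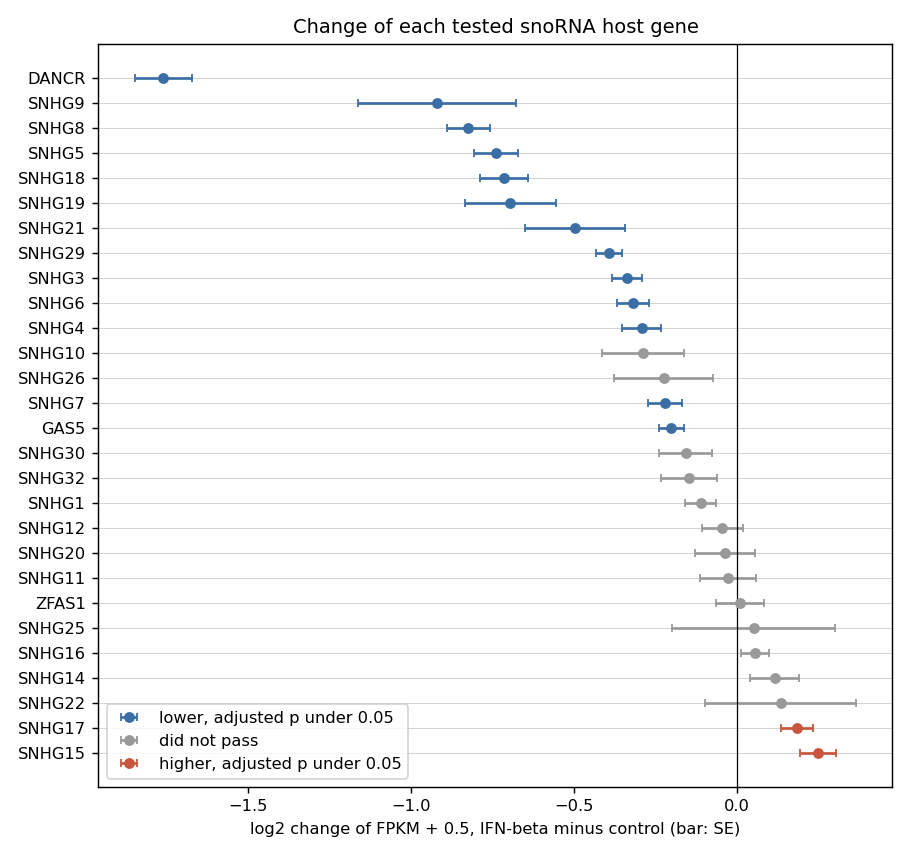
Log2 change of FPKM + 0.5 (IFN-beta minus control, horizontal axis) for each of the 28 tested host genes, with its SE as a bar and the outcome of the limma test as colour. DANCR stands at -1.76, the next 5 genes lie between -0.92 and -0.70, and the 2 host genes called higher are at 0.18 and 0.25.

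The start of a host gene is shown here because the 5′TOP pattern is the sequence feature best known for this family. The pattern looked for was a C followed by at least 4 pyrimidines (C or T) on the sense strand, in RefSeq promoters of build GRCh38.p14, which run from 250 bases before to 50 bases after the annotated start. RefSeq held a promoter for 27 of the 31 members, 24 of them tested; SNHG6, SNHG9, SNHG15 and SNHG25 had no entry. The pattern was met at the annotated start itself (a C as its first base, then the pyrimidines) in 7 of the 24 tested members, or 29.2%, against 1429 of all 35116 promoters (4.07%) and 5.29% of the promoters of genes tested. A run that begins within 10 bases of the start was present in 16 of 24 members (66.7%), against 33.5% of all promoters. The 7 members with the pattern at the start were SNHG4, SNHG5, SNHG18 and SNHG19, which were lower with IFN-beta, and SNHG12, SNHG32 and ZFAS1, which did not pass. These windows hold 30 bases before and 30 bases from the start, with the pyrimidine run in capitals:
SNHG5, chr6:85678704-85678763, minus strand: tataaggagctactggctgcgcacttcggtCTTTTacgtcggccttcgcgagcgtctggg
SNHG19, chr16:2155329-2155388, minus strand: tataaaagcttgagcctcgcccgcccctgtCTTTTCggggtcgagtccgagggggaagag
SNHG18, chr5:9546170-9546229, plus strand: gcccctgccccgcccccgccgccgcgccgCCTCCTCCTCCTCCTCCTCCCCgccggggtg
SNHG4, chr5:139274071-139274130, plus strand: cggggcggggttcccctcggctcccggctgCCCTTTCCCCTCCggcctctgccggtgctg
SNHG12, chr1:28581844-28581903, minus strand: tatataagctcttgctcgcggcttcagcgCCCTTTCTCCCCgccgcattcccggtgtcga
SNHG32, chr6:31834886-31834945, plus strand: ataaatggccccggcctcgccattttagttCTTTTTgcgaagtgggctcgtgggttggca
ZFAS1, chr20:49278612-49278671, plus strand: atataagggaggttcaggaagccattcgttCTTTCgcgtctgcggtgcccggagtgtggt

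In SNHG4, SNHG5, SNHG19, SNHG32 and ZFAS1 the run begins at the start itself, and in SNHG18 and SNHG12 it already begins 1 base earlier. The windows of 3 other called members are given for comparison, among them DANCR, whose change was the largest. In DANCR the run begins 1 base after the annotated start, in SNHG8 it begins 5 bases before it, and in SNHG17, which was higher with IFN-beta, a run lies within 10 bases of it:
DANCR, chr4:52712364-52712423, plus strand: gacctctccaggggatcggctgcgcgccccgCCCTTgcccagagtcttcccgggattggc
SNHG8, chr4:118278732-118278791, plus strand: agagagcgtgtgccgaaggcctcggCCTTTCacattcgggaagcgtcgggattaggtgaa
SNHG17, chr20:38435299-38435358, minus strand: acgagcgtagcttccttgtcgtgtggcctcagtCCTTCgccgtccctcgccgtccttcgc

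Annotated starts differ between transcripts of a gene. Over the transcripts of GENCODE release 29, 33 of 254 host gene transcripts (13.0%) began with the run, against 4979 of 206694 in all (2.41%). GAS5 had 6 such transcripts of 29 and DANCR had 0 of 5. A pair of GAAA copies with any 2 bases between them, the core of the element that interferon-activated factors bind, was searched on both strands after the data were seen. It was found in 0 of the 27 host gene promoters and in 1255 of the 35116 promoters (3.57%), which says only that these letters are not in this window of 300 bases.

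**Figure D2:**
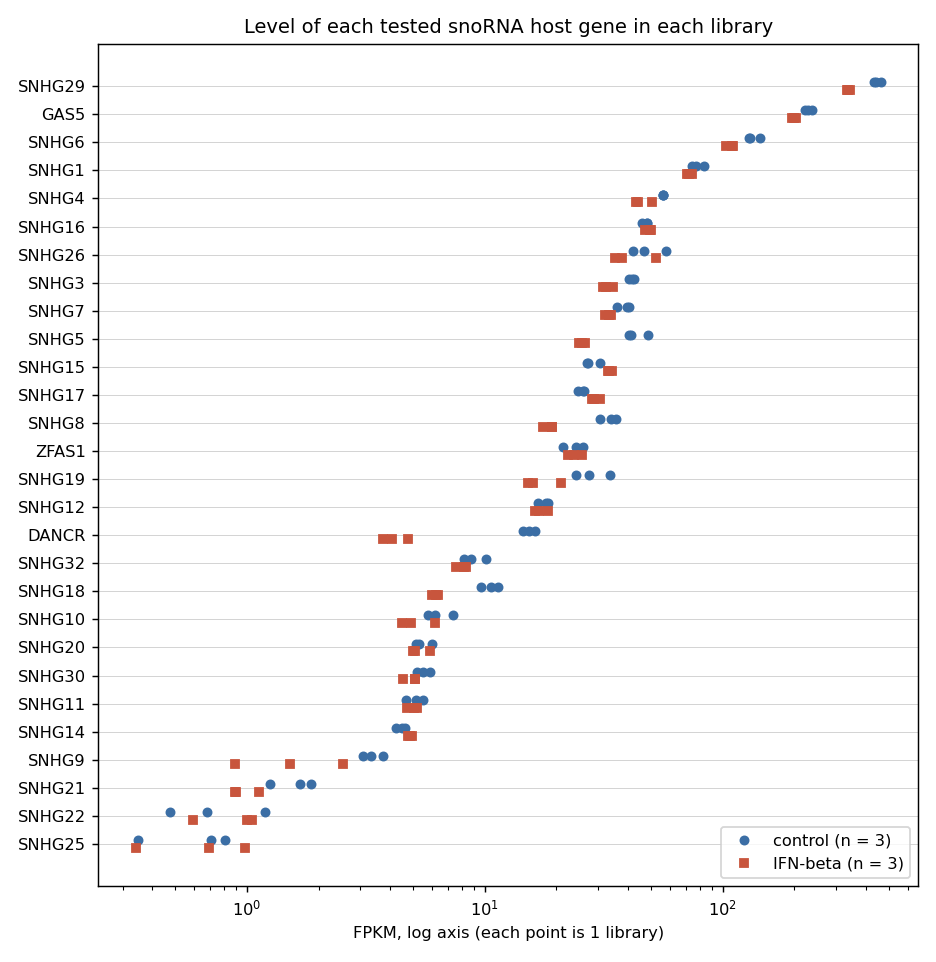
FPKM (log axis) of each tested host gene in each of the 3 control and 3 IFN-beta libraries, ordered by mean level over the 6 libraries. Levels run from 431 to 464 FPKM for SNHG29 in the control libraries down to 0.340 to 0.980 FPKM for SNHG25 with IFN-beta, and the groups are farthest apart for DANCR.

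Of the 28 host genes tested, 3 had a mean above 100 FPKM, 13 lay between 10 and 100 FPKM, and 12 were under 10 FPKM. All members together took 0.169 ± 0.00623% of the reads in the control group and 0.140 ± 0.00368% in the IFN-beta group (SD, n = 3 each). The most abundant, SNHG29, held 35.9 ± 0.578% of these reads in the control group and 32.9 ± 0.323% in the IFN-beta group. Without SNHG29 the share was 0.108 ± 0.00422% and 0.0938 ± 0.00293%.

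Hosts were sorted by the rows named SNORD (box C/D) or SNORA (box H/ACA) that the deposited table lists inside their span. The counts are to be read beside all genes tested, of which 42.4% passed, 19.9% lower and 22.5% higher. Among 9 hosts with box H/ACA rows only, 6 were lower, 2 were higher and 1 did not pass, with a median log2 change of -0.29. Among 12 hosts with box C/D rows only, 5 were lower, 0 were higher and 7 did not pass, with a median of -0.19. The 2 hosts with both, SNHG12 and SNHG25, did not pass. Of 5 with no row of either name inside, GAS5 and SNHG21 were lower, and SNHG10, SNHG20 and SNHG22 did not pass. Other names were not searched, so these 5 may hold small RNAs listed otherwise. SNHG20 shares exonic bases with SCARNA16, and SNHG22 with SCARNA17. The difference between the classes was not tested.

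DANCR, the box H/ACA host of SNORA26 (chr4:52712325-52723623), had 15.3, 14.5 and 16.2 FPKM in the control libraries and 3.75, 4.75 and 4.08 FPKM in the IFN-beta libraries. Every IFN-beta library lay far below every control library, with 27.3% of the control mean remaining. Behind these values stood 675 to 729 reads per control library and 182 to 203 per IFN-beta library. The log2 change was -1.76 ± 0.09 (SE; limma adjusted p = 1.02e-06). By GENCODE, 11.9% of its exonic bases are shared with the gene AC104066.3 on the opposite strand, and whether reads were counted by strand is not given in the sources used here.

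SNHG8, the box H/ACA host of SNORA24 (chr4:118278709-118285316), had 34.0, 30.6 and 35.7 FPKM in the control libraries and 17.5, 19.2 and 19.1 FPKM with IFN-beta. The groups were well apart, and the log2 change was -0.82 ± 0.07 (SE; limma adjusted p = 2.01e-05). SNHG8 overlaps PRSS12, a secreted protease gene on the opposite strand, which fell from 12.3, 11.3 and 11.8 FPKM to 8.01, 7.84 and 7.78 FPKM (log2 change -0.55 ± 0.06, SE; limma adjusted p = 0.000118). By GENCODE, SNHG8 shares 14.2% of its exonic bases with SNORA24, the snoRNA it hosts, and no exonic base with PRSS12.

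SNHG9, the box H/ACA host of SNORA78 (chr16:1964959-1965509), had 3.08, 3.31 and 3.74 FPKM in the control libraries and 0.889, 1.51 and 2.54 FPKM with IFN-beta. The IFN-beta libraries differed among themselves by more than the control libraries did, and they rested on 10, 15 and 29 reads against 34, 37 and 36. The log2 change of -0.92 ± 0.24 (SE; limma adjusted p = 0.0146) therefore has the widest error among the called hosts. With no filter on low values its adjusted p was 0.0672. By GENCODE, SNHG9 shares 23.0% of its exonic bases with SNORA78.

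The other box H/ACA hosts moved less. SNHG3, the host of the SNORA73 pair, had 41.6, 40.6 and 42.4 FPKM in the control libraries and 32.4, 34.4 and 31.4 FPKM with IFN-beta (log2 change -0.34 ± 0.05, SE; limma adjusted p = 0.000508). SNHG4, which holds SNORA74 copies, had 56.1, 56.3 and 56.0 FPKM and then 43.9, 50.6 and 43.1 FPKM (-0.29 ± 0.06, SE; limma adjusted p = 0.00412). SNHG7, which holds SNORA17 copies, had 40.2, 39.7 and 36.1 FPKM and then 32.1, 33.4 and 33.9 FPKM (-0.22 ± 0.05, SE; limma adjusted p = 0.00882). In all 3 the groups did not overlap. SNHG3 lies in the span of RCC1, the exchange factor of the GTPase Ran, and 11.0% of its exonic bases are shared with other genes. The shares were larger for SNHG4, at 16.6%, and for SNHG7, at 31.4%, with 25.2% on the opposite strand. RCC1 itself did not pass, with a log2 change of -0.07 ± 0.03 (SE, limma adjusted p = 0.136).

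The 2 host genes that rose were both box H/ACA hosts. SNHG15, the host of SNORA9 (chr7:44983023-44986961), had 27.2, 26.9 and 30.5 FPKM in the control libraries and 33.4, 34.3 and 32.9 FPKM with IFN-beta. Its log2 change was 0.25 ± 0.06 (SE; limma adjusted p = 0.00648). SNHG17, the host of the SNORA71 cluster (chr20:38419638-38435409), had 26.1, 25.8 and 24.6 FPKM and then 28.1, 28.7 and 30.4 FPKM, with a log2 change of 0.18 ± 0.05 (SE; limma adjusted p = 0.0145). All IFN-beta libraries lay above all control libraries in both genes. Without IFN-beta replicate 3 the adjusted p of SNHG17 was 0.0586. SNHG11, which lies next to SNHG17 on chromosome 20 and holds SNORA60 and SNORA71E, had 5.52, 4.66 and 5.11 FPKM and then 4.69, 5.21 and 5.04 FPKM, and did not pass (limma adjusted p = 0.822).

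Among the box C/D hosts, SNHG5 had the largest change. SNHG5, the host of SNORD50B (chr6:85650491-85678932), had 41.1, 40.5 and 48.4 FPKM in the control libraries and 24.8, 25.7 and 26.5 FPKM with IFN-beta. The log2 change was -0.74 ± 0.07 (SE; limma adjusted p = 5.22e-05), and the IFN-beta libraries agreed closely. SNHG18, the host of SNORD123 (chr5:9546200-9550609), had 9.62, 11.3 and 10.6 FPKM and then 6.24, 6.38 and 5.99 FPKM (-0.72 ± 0.07, SE; limma adjusted p = 9.77e-05). SNHG19, the host of SNORD60 (chr16:2154797-2155358), had 33.6, 24.1 and 27.4 FPKM and then 15.1, 20.9 and 16.0 FPKM (-0.70 ± 0.14, SE; limma adjusted p = 0.00379). In all 3 genes the pattern is met at the annotated start, as printed above, and their groups did not overlap. SNHG18 and SNHG19 share no exonic base with another gene.

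**Figure D3:**
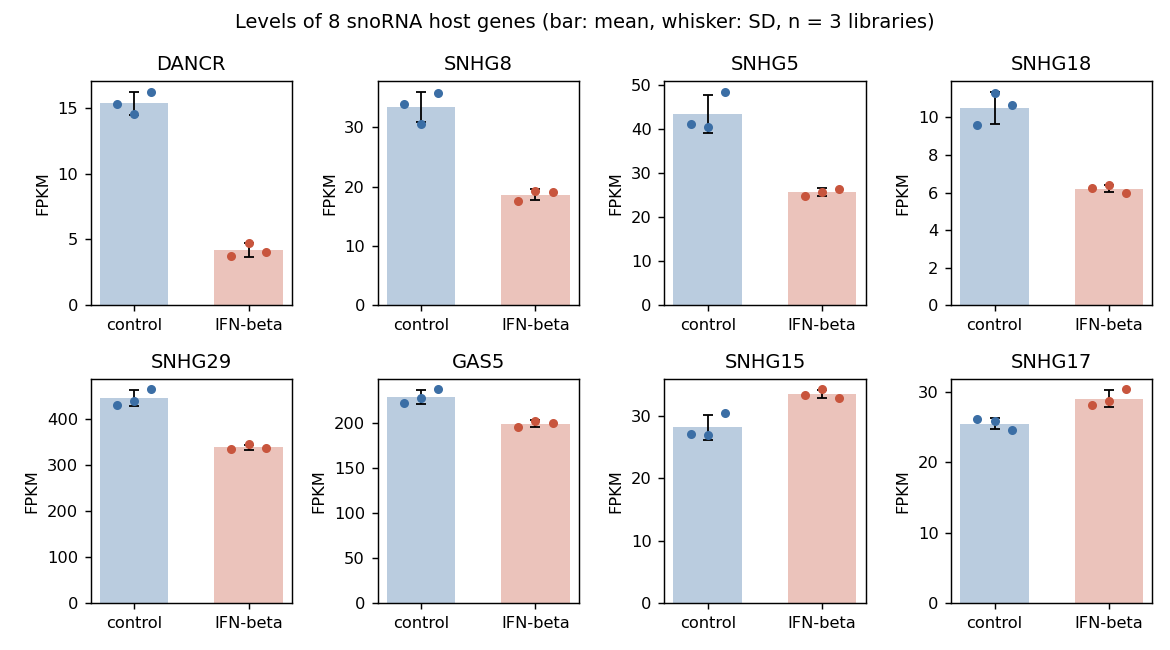
FPKM of 8 host genes in the control and IFN-beta groups, each on its own linear axis from 0; bars are means, whiskers the SD over 3 libraries and points the libraries. DANCR drops from a mean of 15.4 to 4.19 FPKM, SNHG29 and GAS5 drop by smaller shares from high levels, and SNHG15 and SNHG17 rise.

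The most abundant hosts fell by smaller shares. SNHG29, the host of SNORD49 copies and SNORD65 (chr17:16438767-16478678), had 431, 440 and 464 FPKM in the control libraries and 334, 345 and 337 FPKM with IFN-beta (log2 change -0.39 ± 0.04, SE; limma adjusted p = 7.65e-05). GAS5 (chr1:173858559-173868882) had 222, 229 and 238 FPKM and then 195, 203 and 200 FPKM (-0.20 ± 0.04, SE; limma adjusted p = 0.0028). SNHG6, the host of SNORD87, had 129, 130 and 144 FPKM and then 103, 109 and 111 FPKM (-0.32 ± 0.05, SE; limma adjusted p = 0.000994). No library of one group reached the other in these 3 genes, which together held 51.1% of the members' reads in the control group and 48.6% in the IFN-beta group. SNHG6 shares 36.4% of its exonic bases with other genes, SNHG29 17.8% and GAS5 1.16%.

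SNHG1, which carries 7 box C/D rows, was near to a call without reaching it. It had 77.1, 74.3 and 83.5 FPKM in the control libraries and 74.2, 72.2 and 70.5 FPKM with IFN-beta. The lowest control library stood just above the highest IFN-beta library, and the log2 change was -0.11 ± 0.05 (SE; limma adjusted p = 0.0958). SNHG30, the host of SNORD7, was similar, with 5.87, 5.19 and 5.50 FPKM and then 5.09, 5.07 and 4.52 FPKM (limma adjusted p = 0.155). SNHG14, a very long transcript of the imprinted region linked to Prader-Willi and Angelman syndromes, had 4.49, 4.61 and 4.23 FPKM and then 4.86, 4.95 and 4.76 FPKM. All its IFN-beta libraries lay above its control libraries, by a log2 difference of 0.12 ± 0.08 (SE; limma adjusted p = 0.249). The imprinted gene UBE3A, which SNHG14 overlaps on the opposite strand, differed by -0.05 ± 0.04 (SE; limma adjusted p = 0.448).

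In 10 host genes the 2 groups overlapped, and none of these passed. SNHG16, the host of the SNORD1 cluster, had 47.9, 45.7 and 48.1 FPKM in the control libraries and 47.2, 49.7 and 50.2 FPKM with IFN-beta (limma adjusted p = 0.339). ZFAS1, the host of the SNORD12 cluster, had 25.8, 21.4 and 24.2 FPKM and then 22.4, 23.7 and 25.5 FPKM, a log2 difference of 0.01 ± 0.07 (SE; limma adjusted p = 0.937). SNHG12 had 18.4, 16.7 and 18.0 FPKM and then 16.9, 18.4 and 16.2 FPKM (limma adjusted p = 0.594). In these 3 hosts the libraries of the groups interleaved. ZFAS1 shares 46.9% of its exonic bases with other genes, SNHG16 33.4% and SNHG12 9.54%. SNHG32, the host of SNORD48 and SNORD52 in the major histocompatibility complex region, had 10.1, 8.15 and 8.73 FPKM and then 7.56, 8.20 and 8.37 FPKM (limma adjusted p = 0.198). SNHG20 had 5.28, 5.14 and 6.01 FPKM and then 4.97, 5.91 and 5.10 FPKM (limma adjusted p = 0.776). SNHG10 had 6.19, 5.74 and 7.33 FPKM and then 4.48, 6.19 and 4.88 FPKM, a log2 difference of -0.29 ± 0.13 (SE; limma adjusted p = 0.096). In SNHG10 it was IFN-beta replicate 2 that reached into the control range. By GENCODE, 20.1% of the exonic bases of SNHG10 are shared with GLRX5 on the opposite strand. GLRX5 went from a mean of 59.7 FPKM in the control group to 47.7 FPKM with IFN-beta (log2 change -0.32 ± 0.04, SE, limma adjusted p = 0.000169). With strand unknown, the SNHG10 values may hold reads of GLRX5.

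SNHG26, the host of SNORD93, showed the widest spread among the well-covered hosts. It had 46.7, 41.9 and 57.5 FPKM in the control libraries and 37.9, 52.5 and 35.2 FPKM with IFN-beta (limma adjusted p = 0.266). Control replicate 3 and IFN-beta replicate 2 were its highest libraries, and these are the libraries with the lowest inferred read totals. Control replicate 3 was the highest control library in 16 of the 28 host genes (57.1%), against 31.1% of all genes tested. IFN-beta replicate 2 was the highest IFN-beta library in 16 of 28 (57.1%), against 35.6%. The comparison was repeated without both, an alternative added after the data were seen, and 13 host genes were then lower and 1 was higher. SNHG9 (limma adjusted p = 0.0700), SNHG17 (0.0626) and SNHG21 (0.17) then no longer passed, and SNHG26 (0.0164) and SNHG10 (0.0381) did. SNHG26 and SNHG10 also passed when IFN-beta replicate 2 alone was left out (limma adjusted p = 0.0323 and 0.0256).

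The members with the lowest levels carried little information. SNHG21 had 1.67, 1.25 and 1.85 FPKM in the control libraries and 0.893, 0.901 and 1.13 FPKM with IFN-beta, from 16 to 33 reads per library. It was called lower (log2 change -0.50 ± 0.15, SE; limma adjusted p = 0.0277), but 72.9% of its exonic bases are shared with other genes (AC105339.2 and FSD2). The call was lost without control replicate 1 or 3 or IFN-beta replicate 1 or 2 (limma adjusted p of 0.0768 to 0.0876). The call was also lost with no filter on low values (limma adjusted p = 0.0952) and when voom weights were used on recovered reads (0.0653). SNHG22 had 0.677, 1.19 and 0.474 FPKM and then 0.590, 1.00 and 1.05 FPKM (limma adjusted p = 0.677). SNHG25 had 0.704, 0.347 and 0.806 FPKM and then 0.691, 0.980 and 0.340 FPKM, from 2 to 5 reads per library (limma adjusted p = 0.889). SNHG25, with a mean of 0.645 FPKM, was the member just inside the limit for testing, and SNHG31, at 0.0743 FPKM, the one just outside. SNHG27 and SNHG28 were listed at 0 in every library, which with a floor of 3 reads says only that they were not detectable at this depth. No tested member had a mean under 0.5 FPKM in either group.

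Most rows of the snoRNAs themselves were at 0. The table lists 134 rows named SNORD or SNORA inside the members, and 122 of these were at 0 in all 6 libraries. SNHG14 alone holds 83 of them, all at 0, and without it 39 of 51 were at 0. The row of SNORA26 inside DANCR and all 7 rows inside SNHG1 were at 0, although both hosts were detected. By GENCODE, the 7 rows in SNHG1 and the 3 in SNHG29, also at 0, share exonic bases with their host. So does SNORA73A in SNHG3, at 0, whereas SNORA73B, which had reads, does not. Others went the other way: SNORA26 and SNORD60 share none and were at 0, and SNORD7 shares some and had 1 read. How reads in overlapping rows were counted is not known, and its part in the zeros was not tested. No such row was found inside GAS5. The data therefore give no level for the mature snoRNAs of most hosts.

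For 3 of the rows with reads the sequence is given, from GENCODE release 29 and its genome GRCh38, since they show the boxes that define the class. Capitals mark a box C core (TGATGA, sought in the first 25 bases) and a box D (CTGA, sought in the last 20 bases), on the sense strand of the snoRNA. Over all 308 SNORD rows with a sequence, 66.6% held the first and 90.9% the second.
SNORD104 in SNHG25, chr17:64146083-64146152, plus strand: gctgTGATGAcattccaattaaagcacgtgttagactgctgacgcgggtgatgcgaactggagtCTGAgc
SNORD123 in SNHG18, chr5:9548836-9548905, plus strand: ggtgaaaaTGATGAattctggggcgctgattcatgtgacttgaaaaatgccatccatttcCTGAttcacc
SNORD12C in ZFAS1, chr20:49278940-49279028, plus strand: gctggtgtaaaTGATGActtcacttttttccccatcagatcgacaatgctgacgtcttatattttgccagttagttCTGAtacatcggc

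SNORD104 had 17, 16 and 12 reads in the control libraries and 8, 10 and 22 with IFN-beta. SNORD123 had 2, 3 and 1 reads and then 2, 1 and 5, while its host SNHG18 fell. SNORD12C had 2, 4 and 2 reads and then 7, 1 and 4. The groups overlapped in all 3, and neither these nor any other snoRNA row tested passed (limma adjusted p of 0.35 for SNORD93 in SNHG26, the snoRNA row with the highest mean, 11.8 FPKM). SNORD123 differed by 0.17 ± 0.36 on the log2 scale (SE, limma adjusted p = 0.728), on these few reads. Whether it followed the fall of SNHG18 was not tested.

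Some host genes start close to another gene on the opposite strand, and 8 of the tested members had such a neighbour within 1000 bases of their start. The largest change was that of ZNFX1, an interferon-inducible RNA helicase that acts as an antiviral sensor, which starts 248 bases from ZFAS1: it rose from 38.0, 34.8 and 34.1 FPKM to 93.8, 100.2 and 94.3 FPKM (log2 change 1.42 ± 0.05, SE; limma adjusted p = 8.92e-08), while ZFAS1 itself differed by 0.01. SEMA5A, a semaphorin that starts 125 bases from SNHG18, fell from 7.80, 7.70 and 6.77 FPKM to 3.11, 2.66 and 2.86 FPKM (-1.23 ± 0.09, SE; limma adjusted p = 1.2e-05), in the same direction as SNHG18. RPS2, a ribosomal protein of the small subunit that starts 118 bases from SNHG9, had a mean of 2566 FPKM in the control group and 2020 FPKM with IFN-beta (-0.35 ± 0.05, SE; limma adjusted p = 0.000378). TRAF7, 340 bases from SNHG19, was lower too, with a log2 change of -0.18 ± 0.05 (SE; limma adjusted p = 0.018).

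Of the 4 pairs in which the host was lower, 3 thus had a neighbour that was also lower, and in the fourth, GAS5 and ZBTB37, the neighbour did not pass (0.16 ± 0.08, SE; limma adjusted p = 0.15). Lower calls made up 19.9% of all genes tested, and with so few pairs the joint direction was not tested. SLC3A2, an amino acid transporter chain that starts 149 bases from SNHG1, was lower by -0.14 ± 0.05 (SE; limma adjusted p = 0.0394), next to a host that did not pass. The neighbours of SNHG16 and SNHG22, AC015802.4 and ACAA2, did not pass either. Where genes overlap and strand is unknown, reads of a host and its neighbour cannot be told apart. ZNFX1 overlaps ZFAS1 and is among the genes that share its exonic bases, 26.1% of which are shared on the opposite strand. The ZFAS1 values may therefore hold reads of ZNFX1.

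**Figure D4:**
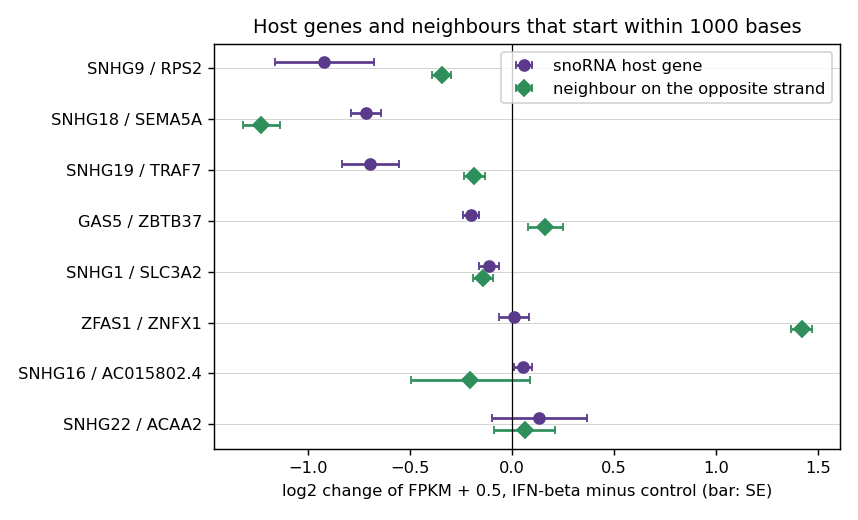
Log2 change (IFN-beta minus control, bars are SE) of 8 host genes and of the gene that starts within 1000 bases on the opposite strand. SEMA5A, RPS2 and TRAF7 lie below 0 beside lower hosts, while ZNFX1 stands at 1.42 beside ZFAS1 at 0.01.

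Related gene groups were set beside the noncoding hosts by the same fit. Their counts are to be read beside the 42.4% of all genes tested that passed, 19.9% lower and 22.5% higher. Protein-coding genes that carry snoRNAs in their introns gave 22 lower, 1 higher and 12 that did not pass among 35 tested (65.7% passed), with a median log2 change of -0.29. Control replicate 3 was the highest control library in 28 of these 35 genes, against 31.1% of all genes tested, and IFN-beta replicate 2 the highest IFN-beta library in 6. Without both libraries 22 of the 35 passed in either direction, against 23 with them. RPL23, a protein of the large ribosomal subunit, went from a mean of 1994 to 1140 FPKM (log2 change -0.80 ± 0.07, SE; limma adjusted p = 2.25e-05), and RPL21 fell by 0.65 on the log2 scale. HSPA8, a heat shock protein and the most abundant of the 12, did not pass (-0.12 ± 0.07, SE; limma adjusted p = 0.181). Split after the values were seen, 18 of 19 ribosomal protein hosts were lower, with a median of -0.38, and of the other 16 hosts 4 were lower, 1 was higher and 11 did not pass, with a median of -0.05. The one higher was NCL, which encodes nucleolin (0.14 ± 0.04, SE; limma adjusted p = 0.0248).

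The proteins that assemble and bind snoRNAs changed in both directions. Of 17 tested, 5 were lower, 2 were higher and 10 did not pass, with a median of -0.07. Thus 41.2% passed, near the 42.4% of all genes tested. The 5 lower were NHP2 (log2 change -0.27), NOP10 (-0.27), FBL (-0.20), RUVBL2 (-0.16) and GAR1 (-0.13). The 2 higher were NOLC1, a nucleolar chaperone of snoRNA particles (0.32 ± 0.03, SE; limma adjusted p = 8.07e-05), and NAF1, an assembly factor of box H/ACA particles (0.32 ± 0.07, SE; limma adjusted p = 0.00591). NOP56, a core protein of box C/D particles, did not pass, at 0.07 (limma adjusted p = 0.15).

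Factors of nonsense-mediated decay gave 8 higher, 3 lower and 6 that did not pass among 17 (64.7% passed, against 42.4% of all genes), with a median of 0.12. RBM8A, a subunit of the exon junction complex, was lower (log2 change -0.40 ± 0.05, SE; limma adjusted p = 0.000173), and CASC3, of the same complex, did not pass (-0.04). Among 19 general RNA decay enzymes 6 were higher, 4 were lower and 9 did not pass (52.6% passed), with a median of -0.01. XRN1, the cytoplasmic exonuclease that degrades from the 5′ end, rose most, from 33.0, 33.5 and 32.9 FPKM to 68.9, 68.0 and 67.4 FPKM (1.03 ± 0.04, SE; limma adjusted p = 7.94e-08). DCP1A, a subunit of the decapping complex, rose by 0.69 ± 0.04 (SE; limma adjusted p = 5.16e-06), and CNOT1, the scaffold of the main deadenylase, did not pass (0.12; limma adjusted p = 0.0588).

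Regulators of messages with a 5′TOP start gave 4 higher, 2 lower and 7 that did not pass among 13, with a median of 0.02. Thus 46.2% passed, near the 42.4% of all genes tested. MYC, a transcription factor that promotes ribosome production, was higher by 0.85 ± 0.06 (SE; limma adjusted p = 9.59e-06). EIF4EBP1, which represses translation when its kinase mTOR is inactive, was lower (-0.18 ± 0.05, SE; limma adjusted p = 0.0198), and CNBP, which binds 5′TOP messages, did not pass (0.02). Long noncoding RNAs that are not snoRNA hosts gave 4 higher, 4 lower and 4 that did not pass among 12 (66.7% passed), with a median of -0.04. CRNDE fell by 0.79 and MIR205HG, the host of a microRNA of keratinocytes, by 0.55 on the log2 scale, and NEAT1, the scaffold of paraspeckles, did not pass (-0.07; limma adjusted p = 0.706). Differences between these lists and the snoRNA hosts were not tested.

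**Figure D5:**
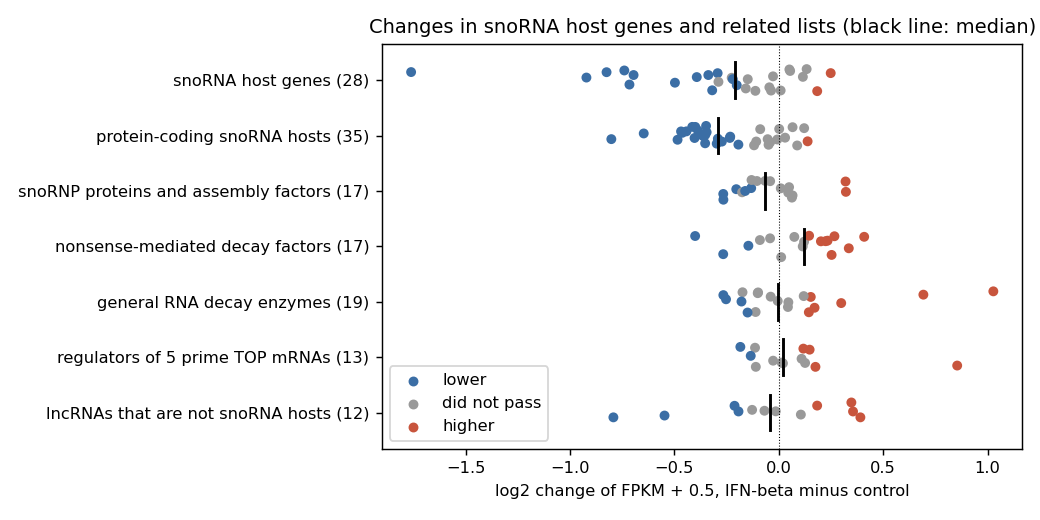
Log2 change (IFN-beta minus control) of each tested gene in the snoRNA host group and 6 related lists, coloured by the outcome of the limma test, with the median of each list as a black line and the number tested in brackets. The medians of the noncoding and the protein-coding hosts are -0.21 and -0.29, and those of the other lists lie between -0.07 and 0.12.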

How the data were processed

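The authors deposited 1 table of FPKM values for 60671 genes in 6 libraries, with human Ensembl identifiers. Groups came from the sample titles. How reads were aligned and counted, and whether by strand, is not given in the sources used here. The submitters' processing notes name the mouse builds GRCm38 and mm10; of the 58453 identifiers also in human GENCODE release 29, 76.8% had the same coordinates, so coordinates of genes are as deposited, with GRCh38 inferred. Whole reads were recovered from the steps of the FPKM values for 30507 of 30507 genes with a value, within 0.01 reads, though with few reads the true number can be a multiple of that. Intervals were not computed, and read floors cover counting error only.

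The test was limma 3.58.1 under R 4.3.3 on log2(FPKM + 0.5), two-sided, with a trended eBayes step, over genes with a mean of at least 0.5 FPKM, which was tested on simulated data; the scale understates changes of low genes. Tables used Python 3.11.15 and pandas 2.3.3. Every tested member was to be named, and of each related list at most 2 called genes by size of change and 1 that did not pass by level. NCL, RPL17, EIF4A1 and the 5 lower snoRNA particle proteins were named in addition. The members, lists and tests were chosen with earlier results of these data known. Alternatives changed the pseudocount, filter, scaling, variance model, block and libraries, and limma voom was run on the recovered reads.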

Additional observations from a re-analysis of the deposited data

How the results depend on the processing

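Over 18 alternatives, 12 of the 15 called host genes kept their call and direction in every one, 11 of them lower; the exceptions were SNHG9, SNHG17 and SNHG21. The count of lower host genes was 11 with no filter, 16 with quantile normalization and 12 to 14 when each library was left out, and the median log2 change stayed below 0 throughout, from -0.25 to -0.17. The count of higher host genes was 1 to 2 when each library was left out, and 1 without control replicate 3 and IFN-beta replicate 2 together. The share of higher calls among all called genes was 53.2%, against 63.2% once libraries were scaled to an equal sum and 41.3% with quantile normalization; the host genes were then 13 lower and 2 higher, and 16 lower and 2 higher. With limma voom on the recovered reads 6874 genes were called, against 6431. SNHG1 (adjusted p = 0.0266), SNHG30 (0.0396) and SNHG10 (0.0477) passed after quantile normalization.

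The replicate numbers did not pair the libraries: deviations of same-numbered libraries correlated at -0.05, -0.10 and -0.06. Blocking on the replicate number left 13 host genes lower and 2 higher, and 5817 genes were called in all.

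Host genes near 0 changed sign. SNHG11 was at 0.015 after scaling to an equal sum and ran from -0.085 (without control replicate 2) to 0.026 (without control replicate 1) when each library was left out, with 0.011 without IFN-beta replicate 1. SNHG20 was at 0.0050 after that scaling and ran from -0.11 to 0.026 (without control replicate 3), with 0.0063 without IFN-beta replicate 1. SNHG22 ran from -0.044 (without control replicate 3) to 0.35, and was at -0.11 without control replicate 3 and IFN-beta replicate 2. SNHG25 ran from -0.14 (without control replicate 2 or IFN-beta replicate 2) to 0.27, and was at -0.081 after quantile normalization and -0.014 without control replicate 3 and IFN-beta replicate 2. ZFAS1 ran from -0.064 (without control replicate 2) to 0.067, with -0.039 without IFN-beta replicate 3, and was at -0.0056 with median-of-ratios size factors and -0.033 after quantile normalization. Called RNA decay enzymes went from 10 to 6 with eBayes without trend and with no filter, called noncoding RNAs that are not hosts from 8 to 5 with no filter, called regulators of 5′TOP messages from 6 to 3 without trend and to 1 without control replicate 3 and IFN-beta replicate 2, and called snoRNA particle proteins from 7 to 11 with quantile normalization. Leaving out each library gave 6 to 10 decay enzymes (6 without IFN-beta replicate 2 or control replicate 2), 1 to 6 regulators (3 without IFN-beta replicate 1 and 1 without IFN-beta replicate 2), 6 to 8 noncoding RNAs and 5 to 8 particle proteins. The causes were not tested.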
